A study of Homo sapiens with 12 samples.

Results

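The genes described here encode enzymes that use molecular oxygen, most of them to take methyl groups off histones or to oxidise methylcytosine in DNA. They are the histone demethylases KDM3A, KDM3B, KDM4A, KDM4B, KDM4C and KDM5B, the lysyl hydroxylase JMJD6, and the methylcytosine oxidases TET1, TET2 and TET3. Members were matched by name to array probe sets that the platform annotation pairs with a single gene symbol. Of the 10 genes named, 9 had such a probe set, 1 each, out of 14232 genes with one on the array. The only probe set of KDM5B, an H3K4 demethylase, is paired with several symbols, so no value is given for it. RNA came from LN229, an established human glioblastoma line, on 12 exon arrays that gave 1 value per probe set. The siRNA was given 24 h after seeding, and 48 h later the cells went into 1% oxygen (hypoxia) or 20% oxygen (normoxia) for 16 h. The 4 groups of 3 arrays each were hypoxia with HIF-1A siRNA, hypoxia with HIF-2A siRNA, hypoxia with non-targeting siRNA, and normoxia with non-targeting siRNA. All cells, those of the control groups included, had thus been transfected, and the oxygen change and the 2 knockdowns were tested in 1 cell line only. Neither HIF siRNA was given in normoxia. Loss of a hypoxic rise and an effect of the siRNA at any oxygen level therefore cannot be told apart.

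HIF-1A and HIF-2A (gene symbols HIF1A and EPAS1) encode the alpha subunits of hypoxia-inducible factors, which accumulate when oxygen falls and bind DNA at short motifs with a core of ACGTG or GCGTG. The demethylases described here are 2-oxoglutarate-dependent dioxygenases: each reaction consumes an oxygen molecule and 2-oxoglutarate at an iron centre, so the substrate that is scarce in hypoxia is one that the enzymes need. KDM3A, KDM4B and KDM4C are known from other cells as genes that HIF-1 can induce. By its title, the study looked for targets specific to HIF-1A or to HIF-2A.

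The stretches of DNA just upstream of the genes' start sites are shown for members that responded to hypoxia and for paralogs that did not, since both kinds held HIF core motifs. They are the 250 bases before the first annotated RefSeq start of each gene (GRCh38.p14), in lower case, with every ACGTG or GCGTG on either strand in capitals. Where both strands match at CACGTG, which reads the same on both, the 2 overlapping matches show as 1 block.
KDM3A (chr2:86441121-86441370, plus strand): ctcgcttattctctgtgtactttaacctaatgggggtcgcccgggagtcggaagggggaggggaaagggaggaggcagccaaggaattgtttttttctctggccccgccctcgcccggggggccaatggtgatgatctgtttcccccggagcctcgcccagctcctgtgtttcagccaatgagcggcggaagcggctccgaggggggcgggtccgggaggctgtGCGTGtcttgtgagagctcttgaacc
KDM4B (chr19:4968863-4969112, plus strand): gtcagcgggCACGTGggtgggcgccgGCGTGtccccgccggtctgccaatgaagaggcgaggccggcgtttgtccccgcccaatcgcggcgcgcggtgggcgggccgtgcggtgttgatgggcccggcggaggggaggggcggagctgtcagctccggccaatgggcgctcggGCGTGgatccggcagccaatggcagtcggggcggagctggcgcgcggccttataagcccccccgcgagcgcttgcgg
KDM4C (chr9:6757723-6757972, plus strand): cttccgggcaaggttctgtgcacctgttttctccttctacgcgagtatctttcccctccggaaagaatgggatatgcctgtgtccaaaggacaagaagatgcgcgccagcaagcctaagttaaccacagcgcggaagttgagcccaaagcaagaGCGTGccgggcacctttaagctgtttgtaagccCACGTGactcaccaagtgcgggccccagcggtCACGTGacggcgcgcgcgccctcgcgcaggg
TET1 (chr10:68560087-68560336, plus strand): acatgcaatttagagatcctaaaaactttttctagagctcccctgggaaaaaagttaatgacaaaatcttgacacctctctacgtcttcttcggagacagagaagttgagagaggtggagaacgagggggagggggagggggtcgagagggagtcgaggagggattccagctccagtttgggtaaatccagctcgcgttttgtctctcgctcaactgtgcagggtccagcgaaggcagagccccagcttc
KDM4A (chr1:43649899-43650148, plus strand): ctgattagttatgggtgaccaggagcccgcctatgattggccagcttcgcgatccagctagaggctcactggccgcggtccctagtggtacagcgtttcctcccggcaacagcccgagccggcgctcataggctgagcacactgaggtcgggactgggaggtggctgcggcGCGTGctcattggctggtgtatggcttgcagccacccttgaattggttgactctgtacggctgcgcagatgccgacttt
TET3 (chr2:73984660-73984909, plus strand): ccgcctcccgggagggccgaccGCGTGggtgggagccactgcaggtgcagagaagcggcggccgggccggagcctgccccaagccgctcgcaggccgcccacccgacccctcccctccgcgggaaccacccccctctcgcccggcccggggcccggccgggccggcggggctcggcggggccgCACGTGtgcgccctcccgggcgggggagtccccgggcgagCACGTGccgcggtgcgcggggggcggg
The search covered windows of 300 bases, 250 before and 50 after a start, of which RefSeq gave 13 for 8 of the 9 measured members. Either motif occurred in 9 of these windows and in at least 1 window of 7 members. The 2 windows of KDM3A overlap and hold the same GCGTG site. Among 35116 promoter windows of that length, 21.4% held ACGTG, 36.5% held GCGTG and 48.4% held either, on either strand. These shares are per window, whereas some members had more than 1 window. They were not matched for GC content, which ran from 47.7% to 82.7% in the members' windows. KDM3A and KDM4A each had a single GCGTG, 26 and 79 bases before the start. KDM4C and TET3 each had 4 ACGTG matches, made of 2 CACGTG blocks, and 1 GCGTG. The block CACGTG occurred in 7.26% of all windows. KDM4B had 2 ACGTG and 2 GCGTG matches. The first window of TET1 had neither motif, and its second window had a GCGTG 189 bases before the start. TET2 had ACGTG matches in both of its windows, and the window of KDM3B had neither motif. A match is a sequence description and no measure of binding.

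Within a group, any pair of arrays had r = 0.983 to 0.994 over probe sets. The deposited values, on a log2 scale, had array medians of 6.49 to 6.82. The arrays with HIF-1A siRNA had a narrower range than those of the other groups, with upper quartiles of 8.22, 8.20 and 7.88, against 8.50, 8.27 and 8.34 with non-targeting siRNA in hypoxia. HIF1A measured 8.20, 9.06 and 7.74 with HIF-1A siRNA, against 11.72, 11.40 and 11.26 with non-targeting siRNA in hypoxia, a fall of 8.76-fold (limma adjusted p = 1.6e-04). EPAS1 measured 7.18, 6.99 and 7.18 with HIF-2A siRNA, against 9.74, 9.57 and 9.83 with non-targeting siRNA in hypoxia, a fall of 6.04-fold (limma adjusted p = 3.13e-05). It was also lower with HIF-1A siRNA, at 8.60, 8.08 and 8.02 (log2 change -1.48), so the arrays labelled HIF-1A siRNA had less of both HIF transcripts than the hypoxic control. EPAS1 itself was higher in the hypoxic control than in normoxia (log2 change 1.19, limma adjusted p = 7.15e-04). With HIF-1A siRNA it did not differ from normoxia by the test (-0.29, adjusted p = 0.148). Of the glioma markers, VIM (11.8 to 12.5), NES, S100B, SOX9 and GFAP lay above every array's lower quartile, whereas AQP4 lay below it on all 12 arrays. Of 15 markers of other cell types, 5 lay below it on all 12 arrays: the leukocyte marker PTPRC, the microglial marker AIF1, the endothelial marker PECAM1 and the epithelial markers CDH1 and EPCAM. Another 2 lay below it on some arrays, the oligodendrocyte marker MOG on 5 and the microglial marker CX3CR1 on 4. The other 8 lay above it on all 12: the epithelial keratin KRT8 (10.8 to 11.6), the macrophage marker CD68 (8.23 to 8.85), the neuronal SYT1 (7.87 to 8.82), GAP43 (7.19 to 8.28) and SNAP25 (6.44 to 7.05), the endothelial VWF (5.49 to 5.83) and CDH5 (5.14 to 5.63), and the oligodendrocyte MBP (5.04 to 5.85). The part of any of these in the results was not tested. The labels do not tell whether the 3 replicates of a group were grown separately; the p-values therefore reflect the spread among these samples alone, and that spread may be technical. In bulk RNA, fewer expressing cells and less RNA per cell cannot be told apart.

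Hypoxia with non-targeting siRNA, set against normoxia, raised 5 of the 9 measured members and lowered 0. KDM3A, KDM4B, KDM4C, JMJD6 and TET1 rose, by 1.53-fold to 3.6-fold, whereas KDM3B, KDM4A, TET2 and TET3 did not pass the test (limma, adjusted p under 0.05 over 14232 genes). Of all genes, 3.37% were called higher, 8.95% lower and 12.3% in either direction. The median log2 change was 0.61 over the 9 members and -0.034 over all genes. For 6 members, the 5 called and TET2, the 3 hypoxic arrays lay above the 3 normoxic arrays, and groups did not overlap for 38.4% of all genes. The share of all calls that were higher was 27.4% on the deposited values and 44.1%, 45.1% and 34.8% after quantile normalization, cyclic loess and median centring. The 5 members were called higher under each of these scalings.

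HIF-1A siRNA in hypoxia lowered 5 of the 9 members and raised 0. KDM3A, KDM4B, KDM4C, JMJD6 and TET1 fell, by 1.32-fold to 3.14-fold against non-targeting siRNA in hypoxia. The call of KDM4B was lost after quantile normalization, cyclic loess and median centring, whereas the other calls were kept under each of these scalings. The 9 members had a median log2 change of -0.50, against -0.052 over all genes. Of all genes, 10.2% were called lower, 0.857% higher and 11.1% in either direction. The groups did not overlap for 6 members, the 5 called and TET2, and for 30.8% of all genes. This comparison and that of hypoxia with normoxia share the 3 hypoxic arrays with non-targeting siRNA. Of its calls over all genes 7.76% were higher on the deposited values, against 39.2%, 31.5% and 28.6% after quantile normalization, cyclic loess and median centring, and the median change of all genes moved to 0.070, 0.026 and 0.070. Relative to that median, the change of KDM4C was -1.28 on the deposited values and -1.19 after quantile normalization, that of JMJD6 -1.03 and -0.89, that of TET1 -1.60 and -1.66, that of KDM3A -0.63 and -0.46, and that of KDM4B -0.35 and -0.21.

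HIF-2A siRNA in hypoxia changed the level of 0 of the 9 members by the limma test, and 0 had an unadjusted p under 0.05. The arrays of both groups overlapped for all 9, whereas groups did not overlap for 9.36% of all genes. The median log2 change was -0.0022 over the members and -0.0067 over all genes. Over all genes the test called 0.00703%, which is EPAS1 alone.

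**Figure D1:**
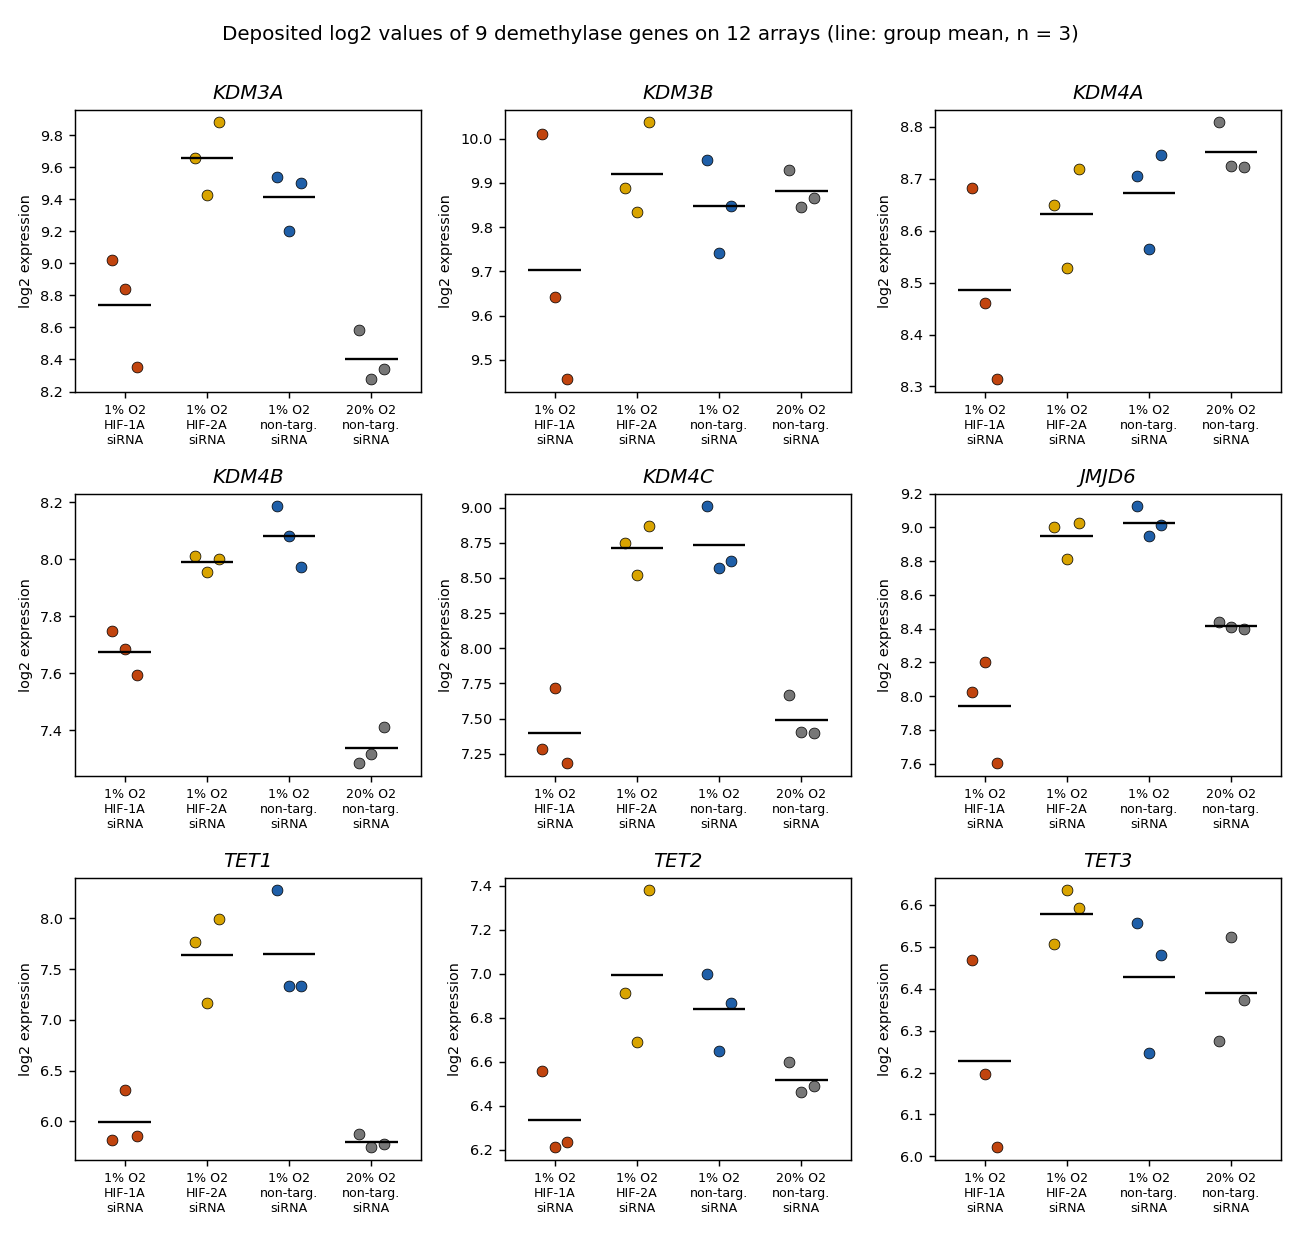
Deposited log2 value of each measured demethylase gene on every array, with 1 point per array, replicates 1 to 3 from left to right within a group, and a line at the group mean (n = 3); the vertical axes differ between genes and do not start at 0. KDM3A, KDM4B, KDM4C, JMJD6 and TET1 were high in hypoxia with HIF-2A or non-targeting siRNA and lower with HIF-1A siRNA and in normoxia, whereas the values of KDM3B, KDM4A and TET3 overlapped in most pairs of groups.

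KDM3A and KDM3B remove mono- and dimethyl marks from H3K9, a mark of silenced chromatin. KDM3A measured 9.54, 9.20 and 9.5 in hypoxia with non-targeting siRNA, against 8.58, 8.28 and 8.34 in normoxia. Each hypoxic array was above each normoxic array, and the gene rose 2.02-fold (log2 change 1.02, SE 0.18, limma adjusted p = 0.00521). With HIF-1A siRNA it measured 9.02, 8.84 and 8.35. All of these lay below the hypoxic control arrays, a fall of 1.60-fold (log2 change -0.68, SE 0.18, limma adjusted p = 0.0392). That call was lost without HIF-1A siRNA replicate 3 (-0.48, adjusted p = 0.126), without hypoxic control replicate 1 (-0.62, adjusted p = 0.159) or 3 (-0.63, adjusted p = 0.102), and in a fit of these 2 groups alone (adjusted p = 0.148). With HIF-2A siRNA KDM3A measured 9.66, 9.43 and 9.88. This group held its highest mean, 9.66 ± 0.23, against 9.42 ± 0.19 in the hypoxic control group (SD, n = 3), and the 2 overlapped (log2 change 0.24, 95% interval -0.16 to 0.64).

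KDM3B showed no such pattern. Its values were 10.01, 9.64 and 9.46 with HIF-1A siRNA, 9.89, 9.83 and 10.04 with HIF-2A siRNA, 9.95, 9.74 and 9.85 in the hypoxic control group and 9.93, 9.85 and 9.87 in normoxia. The groups overlapped in every comparison with the hypoxic control, and the widest spread lay within the HIF-1A siRNA group. The log2 change with hypoxia was -0.03 (95% interval -0.33 to 0.26, limma adjusted p = 0.926), that with HIF-1A siRNA -0.14 (-0.44 to 0.15, adjusted p = 0.472) and that with HIF-2A siRNA 0.07 (-0.22 to 0.37). Its sign in the first 2 of these turned positive after quantile normalization (0.14 and 0.084) and cyclic loess (0.13 and 0.073), with neither called, and in the first after median centring too (0.024).

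KDM4A, KDM4B and KDM4C remove trimethyl marks from H3K9 and H3K36. KDM4C measured 9.01, 8.57 and 8.62 in hypoxia with non-targeting siRNA, against 7.67, 7.40 and 7.40 in normoxia. No array of either group came near the other, and the gene rose 2.36-fold (log2 change 1.24, SE 0.17, limma adjusted p = 0.00117). HIF-1A siRNA left it at 7.29, 7.72 and 7.19, all below the hypoxic control arrays and within or near the normoxic values. The fall was 2.52-fold (log2 change -1.34, SE 0.17, limma adjusted p = 0.00128), and KDM4C, like JMJD6, stayed called under all 15 alternative settings of that comparison (highest adjusted p 0.0367). With HIF-2A siRNA it measured 8.75, 8.52 and 8.87, among the control arrays (log2 change -0.02, 95% interval -0.39 to 0.36).

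KDM4B measured 8.19, 8.08 and 7.97 in hypoxia with non-targeting siRNA, against 7.29, 7.32 and 7.41 in normoxia. The groups lay well apart, and its rise of 1.67-fold had the smallest adjusted p of the members (log2 change 0.74, SE 0.09, limma adjusted p = 6.04e-04). With HIF-1A siRNA it measured 7.75, 7.69 and 7.60. These values stood between the 2 control groups and overlapped neither: 1.32-fold below the hypoxic control arrays (log2 change -0.40, SE 0.09, limma adjusted p = 0.0192) and 1.26-fold above normoxia (0.34, SE 0.09, limma adjusted p = 0.016). The fall against the hypoxic control was not called after quantile normalization (-0.14, adjusted p = 0.276), cyclic loess (-0.19, adjusted p = 0.148) or median centring (-0.28, adjusted p = 0.0506). It was also lost without HIF-1A siRNA replicate 3 (-0.36, adjusted p = 0.0625), without hypoxic control replicate 1 (-0.35, adjusted p = 0.0918) and in a fit of these 2 groups alone (adjusted p = 0.152). The value above normoxia was 0.52 after median centring and 0.68 after both quantile normalization and cyclic loess, called under each. It lost its call without normoxia replicate 1 (0.31, adjusted p = 0.0657) and in a fit of these 2 groups alone (adjusted p = 0.055). With HIF-2A siRNA KDM4B measured 8.01, 7.96 and 8.0, within the range of the hypoxic control arrays apart from the lowest (log2 change -0.09, 95% interval -0.29 to 0.11).

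KDM4A did not follow its paralogs. It measured 8.68, 8.46 and 8.31 with HIF-1A siRNA, 8.65, 8.53 and 8.72 with HIF-2A siRNA, 8.70, 8.57 and 8.75 in the hypoxic control group and 8.81, 8.73 and 8.72 in normoxia. Hypoxic and normoxic control arrays overlapped, and the hypoxic mean was the lower on the deposited scale (log2 change -0.08, 95% interval -0.32 to 0.16, limma adjusted p = 0.75). After quantile normalization and cyclic loess that sign turned, with 0.071 and 0.088 and no call. The change with HIF-1A siRNA was -0.19 (-0.43 to 0.06, adjusted p = 0.266), or 0.094 and 0.077 under those 2 scalings, and the change with HIF-2A siRNA was -0.04 (-0.28 to 0.20).

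JMJD6, a lysyl hydroxylase of splicing proteins that has also been described as a histone arginine demethylase, measured 9.12, 8.95 and 9.01 in hypoxia with non-targeting siRNA, against 8.44, 8.41 and 8.40 in normoxia. The rise was 1.53-fold (log2 change 0.61, SE 0.14, limma adjusted p = 0.0163), and the groups did not overlap. The call was lost without hypoxic control replicate 1 (0.56, adjusted p = 0.0518) and without normoxia replicate 1 (0.62, adjusted p = 0.0567), 2 (0.61, adjusted p = 0.0513) or 3 (0.60, adjusted p = 0.062). With HIF-1A siRNA JMJD6 measured 8.02, 8.20 and 7.60. Every one of these arrays was below the normoxic arrays as well as the hypoxic ones. Against the hypoxic control the fall was 2.12-fold (log2 change -1.09, SE 0.14, limma adjusted p = 0.00139). It was kept under all 15 alternatives (highest adjusted p 0.0459). Against normoxia it was 1.39-fold (log2 change -0.47, SE 0.14, limma adjusted p = 0.024). That second fall was the smaller and depended on the scaling: it was -0.29 after median centring (adjusted p = 0.043), -0.060 after quantile normalization and -0.042 after cyclic loess, the last 2 not called (adjusted p = 0.6 and 0.703). It was also lost without HIF-1A siRNA replicate 3 (-0.30, adjusted p = 0.0673) and without normoxia replicate 1 (-0.46, adjusted p = 0.0746), 2 (-0.48, adjusted p = 0.0572) or 3 (-0.48, adjusted p = 0.0604). A fit of these 2 groups alone did not call it either (adjusted p = 0.0739). With HIF-2A siRNA JMJD6 measured 9.0, 8.81 and 9.03, overlapping the hypoxic control arrays (log2 change -0.08, 95% interval -0.39 to 0.23).

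TET1, TET2 and TET3 oxidise methylcytosine to hydroxymethylcytosine, the first step of active DNA demethylation. TET1 measured 8.28, 7.33 and 7.33 in hypoxia with non-targeting siRNA, against 5.88, 5.75 and 5.77 in normoxia. Replicate 1 stood well above the other hypoxic arrays, and all 3 were above normoxia. Its rise, 3.6-fold, was the largest of the members (log2 change 1.85, SE 0.27, limma adjusted p = 0.00174), and the call was kept under 15 of 15 alternatives with log2 changes of 1.53 to 2.01. With HIF-1A siRNA TET1 measured 5.82, 6.31 and 5.85. These values overlapped normoxia and lay below each hypoxic control array, a fall of 3.14-fold (log2 change -1.65, SE 0.27, limma adjusted p = 0.0049) that was called in 14 of 15 alternatives and missed in the fit of these 2 groups alone (adjusted p = 0.0541). With HIF-2A siRNA it measured 7.77, 7.17 and 8.0, overlapping the control arrays (log2 change -0.0022, 95% interval -0.60 to 0.59).

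TET2 measured 7.0, 6.65 and 6.87 in hypoxia with non-targeting siRNA, against 6.60, 6.46 and 6.49 in normoxia. The groups did not overlap, but the lowest hypoxic array lay close to the highest normoxic one, and the log2 change of 0.32 (95% interval -0.05 to 0.70, limma adjusted p = 0.282) did not pass. With HIF-1A siRNA TET2 measured 6.56, 6.21 and 6.23, below each hypoxic control array (log2 change -0.50, SE 0.17, limma adjusted p = 0.0796). That change had an interval of -0.88 to -0.13 and did not pass after adjustment. With HIF-2A siRNA it measured 6.91, 6.69 and 7.38 (log2 change 0.16, 95% interval -0.22 to 0.53).

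TET3 measured 6.47, 6.20 and 6.02 with HIF-1A siRNA, 6.51, 6.63 and 6.59 with HIF-2A siRNA, 6.56, 6.25 and 6.48 in the hypoxic control group and 6.28, 6.52 and 6.37 in normoxia. The hypoxic control arrays overlapped those of each other group. The log2 change was 0.04 with hypoxia (95% interval -0.25 to 0.32, limma adjusted p = 0.916), -0.20 with HIF-1A siRNA (-0.49 to 0.09, adjusted p = 0.311) and 0.15 with HIF-2A siRNA (-0.14 to 0.44). All 9 measured members lay above the lower quartile of their own array on all 12 arrays.

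**Figure D2:**
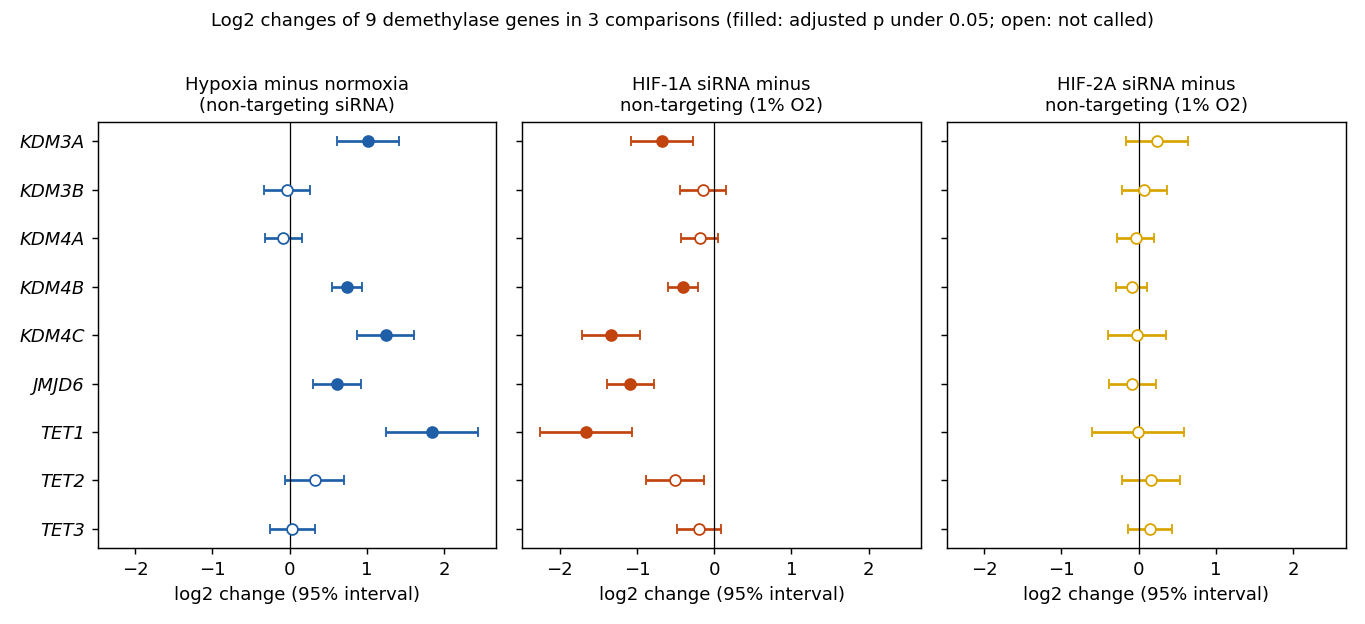
Log2 change of each gene (horizontal axis) with its 95% interval from limma in 3 comparisons, all of which include the hypoxic arrays with non-targeting siRNA; filled points passed an adjusted p of 0.05 and open points did not. The 5 filled genes were higher in hypoxia, from 0.61 for JMJD6 to 1.85 for TET1, and lower with HIF-1A siRNA, from -0.40 for KDM4B to -1.65 for TET1, and no gene is filled for HIF-2A siRNA.

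The differences between paralogs were tested directly, as the value of 1 paralog minus the other on each array. With 3 arrays against 3, an exact two-sided permutation test cannot give a p below 0.1, which became 0.162 after adjustment over 21 tests (7 pairs in 3 comparisons), so no pair could pass the threshold of 0.05. In hypoxia against normoxia, all 7 pairs reached that smallest p, with no overlap between the groups' arrays. Pairs within the KDM4 and TET families share genes, so the 7 are not separate results. The share of other gene pairs that lie apart was not computed. For single genes, the groups did not overlap for 38.4% of all genes. KDM3A changed by 1.05 more than KDM3B on the log2 scale (SE 0.09), KDM4B by 0.82 more than KDM4A (SE 0.11) and KDM4C by 1.32 more than KDM4A (SE 0.14). Within the responding pair, KDM4C changed by 0.50 more than KDM4B (SE 0.15). TET1 changed by 1.53 more than TET2 (SE 0.24) and by 1.81 more than TET3 (SE 0.28), and TET2 by 0.29 more than TET3 (SE 0.11).

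With HIF-1A siRNA against the hypoxic control, the groups' arrays did not overlap for 6 of the 7 pairs. Their exact permutation p of 0.1 is the smallest possible with this number of arrays and only restates that. This comparison shares its hypoxic control arrays with that of hypoxia and normoxia, so it is no separate result. The share of other gene pairs that lie apart was not computed here either. For single genes, the arrays with HIF-1A siRNA and those of the hypoxic control did not overlap for 30.8% of all genes. The differences were -0.53 for KDM3A minus KDM3B (SE 0.11), -1.15 for KDM4C minus KDM4A (SE 0.23) and -0.93 for KDM4C minus KDM4B (SE 0.18). For the TET genes they were -1.15 for TET1 minus TET2 (SE 0.34), -1.45 for TET1 minus TET3 (SE 0.34) and -0.30 for TET2 minus TET3 (SE 0.06). The pair KDM4B and KDM4A overlapped on the deposited values (-0.22, SE 0.11, exact permutation p = 0.2) and lay apart after cyclic loess (-0.27, SE 0.11, exact permutation p = 0.1). With HIF-2A siRNA all 7 pairs overlapped. A difference between paralogs on the same array is not moved by centring, and under quantile normalization, cyclic loess and centring none of the 21 differences changed sign.

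The effects of the 2 siRNAs were also set against each other. This comparison uses no array of the hypoxia comparison, although all share 1 estimate of the spread. With HIF-1A siRNA 5 members were lower than with HIF-2A siRNA and 0 were higher, beside 8.53% and 0.899% of all genes (9.43% in either direction). TET1 was lower by 1.65 on the log2 scale (log2 change -1.65, limma adjusted p = 0.00569), KDM4C by 1.32 (-1.32, adjusted p = 0.00151), JMJD6 by 1.0 (-1.0, adjusted p = 0.00227), KDM3A by 0.92 (-0.92, adjusted p = 0.0148) and TET2 by 0.66 (-0.66, adjusted p = 0.0382). TET2 was thus called here although neither siRNA group differed from the hypoxic control by the test. Its call was lost without HIF-1A siRNA replicate 2 (-0.60, adjusted p = 0.0592) or 3 (-0.61, adjusted p = 0.127) and without HIF-2A siRNA replicate 1 (-0.70, adjusted p = 0.104) or 3 (-0.47, adjusted p = 0.143), and likewise after median centring (-0.52, adjusted p = 0.0512) and in a fit of these 2 groups alone (adjusted p = 0.155). That of KDM3A was lost without HIF-2A siRNA replicate 1 (-0.92, adjusted p = 0.0632) or 3 (-0.81, adjusted p = 0.0732). The fit of these 2 groups alone also lost the calls of KDM3A (adjusted p = 0.106) and JMJD6 (adjusted p = 0.0593). KDM4B (-0.31, adjusted p = 0.0511), TET3 (-0.35, adjusted p = 0.101), KDM3B (-0.22, adjusted p = 0.27) and KDM4A (-0.15, adjusted p = 0.36) did not pass. Groups did not overlap for 7 members, the called ones with KDM4B and TET3, and for 30.5% of all genes. Of the calls over all genes 9.54% were higher on the deposited values and 44.9%, 34.2% and 37.6% after quantile normalization, cyclic loess and median centring.

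Set against normoxia, hypoxia with HIF-2A siRNA had 5 members higher and 0 lower, beside 2.85% and 6.79% of all genes (9.64% in either direction). Groups did not overlap for 7 members (the called ones and TET2 above normoxia, KDM4A below it), and for 36.7% of all genes. This comparison shares the normoxic arrays with that of hypoxia with non-targeting siRNA. The log2 changes were 1.85 for TET1 (limma adjusted p = 0.00209), 1.26 for KDM3A (adjusted p = 0.00205), 1.22 for KDM4C (adjusted p = 0.00158), 0.65 for KDM4B (adjusted p = 0.00152) and 0.53 for JMJD6 (adjusted p = 0.0367). The call of JMJD6 did not survive the loss of any single array of either group, with log2 changes of 0.49 to 0.60 and adjusted p-values of 0.0597 to 0.118 (without HIF-2A siRNA replicate 1, 2 or 3 or normoxia replicate 1, 2 or 3). TET2 changed by 0.48 (0.10 to 0.86, adjusted p = 0.113) and did not pass. Of all calls 29.5% were higher, against 46%, 46.5% and 33.6% under the 3 other scalings.

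Hypoxia with HIF-1A siRNA differed from normoxia in 2 members, beside 35% of all genes called in that comparison (4.67% higher and 30.4% lower). Groups did not overlap for 3 members (KDM4B, JMJD6 and KDM4A), and for 54.5% of all genes. KDM4B was higher and JMJD6 lower, with the values given above. The intervals of the other 3 oxygen-responsive members included 0: KDM3A 0.34 (-0.06 to 0.74, limma adjusted p = 0.165), KDM4C -0.09 (-0.47 to 0.28, adjusted p = 0.681) and TET1 0.19 (-0.40 to 0.79, adjusted p = 0.587). For KDM3A the result depended on the scaling, since it was called higher after median centring (0.52, adjusted p = 0.0211), cyclic loess (0.77, adjusted p = 0.00221) and quantile normalization (0.77, adjusted p = 0.00269), and without HIF-1A siRNA replicate 3 (0.53, adjusted p = 0.0465). KDM4C kept an adjusted p above 0.05 throughout, with log2 changes of 0.085, 0.30 and 0.23 under those scalings. Without HIF-1A siRNA replicate 1, KDM3B (-0.33, adjusted p = 0.0379) and KDM4A (-0.36, adjusted p = 0.0213) were called lower. The median of all genes was -0.12 on the deposited values and 0.058, 0.033 and 0.081 after centring, loess and quantile normalization, and 13.3% of calls were higher on the deposited values against 46.6%, 44.8% and 51.8%.

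**Figure D3:**
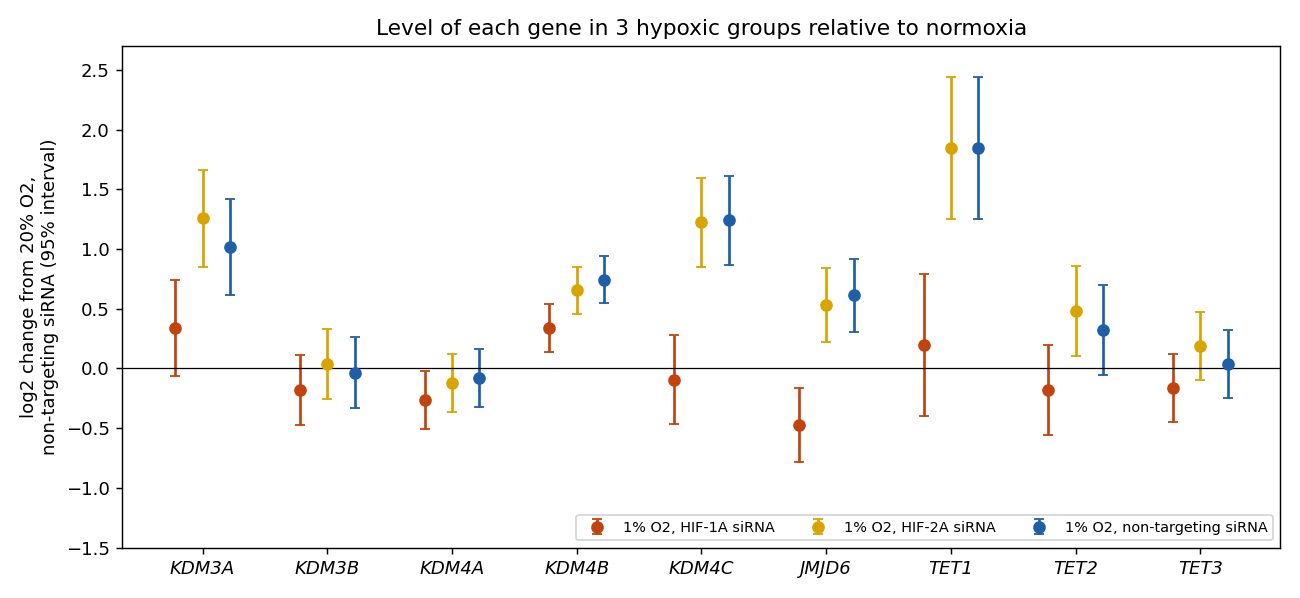
Log2 change from normoxia with non-targeting siRNA (vertical axis, 95% interval from limma, n = 3 arrays per group) in the 3 hypoxic groups; all points share the normoxic arrays. For KDM3A, KDM4B, KDM4C, JMJD6 and TET1 the points for HIF-2A and non-targeting siRNA lie above 0 and the point for HIF-1A siRNA lies below both, and for JMJD6 it lies at -0.47.

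**Figure D4:**
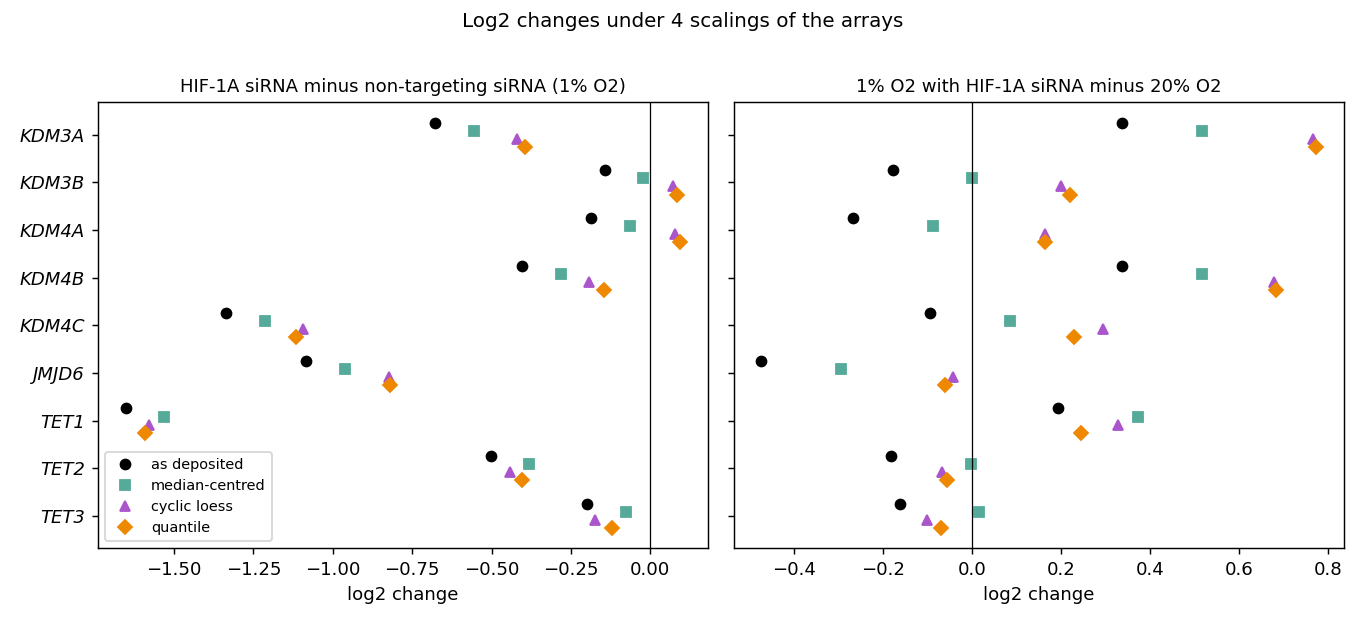
Log2 change of each gene with HIF-1A siRNA against non-targeting siRNA in hypoxia (left) and against normoxia (right) on the deposited values and after 3 other scalings of the arrays. The changes of KDM4C, JMJD6 and TET1 on the left stay between -0.82 and -1.65, whereas KDM4B is at -0.40 on the deposited values and -0.14 after quantile normalization, and on the right JMJD6 is at -0.47 on the deposited values and -0.042 after cyclic loess.

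In order of level, TET1, KDM4C and KDM3A were highest in hypoxia with HIF-2A or non-targeting siRNA, whose arrays overlapped, and lowest with HIF-1A siRNA or in normoxia, whose difference did not pass on the deposited values (that of KDM3A passed under the other 3 scalings). KDM4B was lowest in normoxia, followed by HIF-1A siRNA, HIF-2A siRNA and the hypoxic control. Of these neighbours only HIF-1A siRNA and normoxia differed by the test; HIF-1A and HIF-2A siRNA did not pass (-0.31, limma adjusted p = 0.0511), and the difference between HIF-1A siRNA and the hypoxic control was not called under the other 3 scalings. JMJD6 was lowest with HIF-1A siRNA and next in normoxia on the deposited values, a step that was not called after quantile normalization or cyclic loess. For KDM3B, KDM4A and TET3 no neighbouring groups in the order differed by the test.

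The other JmjC-domain proteins had 18 of 23 named genes measured. In hypoxia against normoxia 2 rose and 2 fell, beside 3.37% and 8.95% of all genes, with a median log2 change of 0.016. The H3K36 demethylases KDM2A (0.72, SE 0.14, limma adjusted p = 0.00726) and KDM2B (0.39, SE 0.09, adjusted p = 0.0205) rose, and HSPBAP1, a partner of a small heat shock protein (-0.86, SE 0.16, adjusted p = 0.0064), and the ribosomal hydroxylase RIOX2 (-0.55, SE 0.14, adjusted p = 0.027) fell. KDM2A and HSPBAP1 kept their calls under all 15 alternatives. KDM2B and RIOX2 kept theirs under 10, and both lost it without hypoxic control replicate 2 or any normoxia replicate (KDM2B also without hypoxic control replicate 1, RIOX2 also without replicate 3), with adjusted p-values of up to 0.0811 and 0.116. With HIF-1A siRNA 4 fell and 0 rose, beside 10.2% and 0.857% of all genes (median -0.28): KDM2A (-0.85, SE 0.14, adjusted p = 0.00508), KDM2B (-0.64, SE 0.09, adjusted p = 0.0026), the H3K4 demethylase KDM5A (-0.83, SE 0.21, adjusted p = 0.0337) and the tRNA hydroxylase TYW5 (-0.67, SE 0.19, adjusted p = 0.0479). KDM2A and KDM2B were called in 14 of 15 alternatives, and the calls of KDM5A and TYW5 were lost without HIF-1A siRNA replicate 1 or 3 or hypoxic control replicate 1 or 3 (adjusted p up to 0.151 and 0.192). KDM5A and TYW5 also lost theirs in a fit of these 2 groups alone (adjusted p = 0.155 and 0.167) and with the replicate number as a block. With HIF-2A siRNA 0 of the 18 were called, beside 0.00703% of all genes, and 0 had an unadjusted p under 0.05.

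Of the AlkB family and FTO, which use the same chemistry on nucleic acids, 7 of 9 named genes were measured. In hypoxia the RNA demethylase ALKBH5 rose (0.83, SE 0.12, limma adjusted p = 0.00157) and the DNA repair enzyme ALKBH2 fell (-0.47, SE 0.10, adjusted p = 0.0124), a call lost without hypoxic control replicate 2 (-0.43, adjusted p = 0.057) or normoxia replicate 3 (-0.44, adjusted p = 0.058). This 1 rise and 1 fall stand beside 3.37% and 8.95% of all genes, and the median was -0.18. With HIF-1A siRNA ALKBH5 (-0.53, adjusted p = 0.0214), ALKBH6 (-0.42, adjusted p = 0.0476) and FTO (-0.41, adjusted p = 0.0235) fell and 0 rose, beside 10.2% and 0.857% of all genes, with a median of -0.41. None of these 3 falls was called after quantile normalization (adjusted p 0.0875, 0.151 and 0.0618) or cyclic loess (adjusted p 0.0705, 0.153 and 0.0601). A fit of these 2 groups alone called none of the 3 either (adjusted p 0.142, 0.147 and 0.161). All 3 were lost without HIF-1A siRNA replicate 3 or hypoxic control replicate 1 or 2 (adjusted p up to 0.093, 0.175 and 0.0762), ALKBH6 and FTO also without hypoxic control replicate 3, and ALKBH6 without HIF-1A siRNA replicate 1. With HIF-2A siRNA 0 of these 7 were called, beside 0.00703% of all genes, with 0 at an unadjusted p under 0.05. The flavin-dependent histone demethylase KDM1A, which needs no 2-oxoglutarate, had a log2 change of -0.51 in hypoxia against normoxia and was not called, and KDM1B was not measured by a single-symbol probe set.

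Over the 12 arrays the gene whose values followed TET1 most closely among the members was KDM4C (Pearson r = 0.98), and the 2 genes ahead of it among all 14232 were ARHGAP21 (0.983) and SCAND2P (0.982). The 3 closest to KDM4C were ERO1A (0.991), RNF128 (0.989) and MYO1E (0.988), and those closest to KDM4B were LOXL2 (0.992), COL5A1 (0.99) and PLXNA3 (0.986). JMJD6 was closest to LINC00312 (0.989), TGFBR1 (0.988) and PTPRM (0.987), and KDM3A to KRT80 (0.979), FANK1 (0.973) and P4HA2 (0.968). These correlations describe arrays that fall into the 4 groups and share each array's scale, and carry no test. Between the paralogs r was 0.47 for KDM3A and KDM3B. In the KDM4 family it was 0.85 for KDM4B and KDM4C, 0.22 for KDM4A and KDM4C and -0.11 for KDM4A and KDM4B, and in the TET family it was 0.82 for TET1 and TET2, 0.71 for TET2 and TET3 and 0.52 for TET1 and TET3.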

How the data were processed

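Total RNA of the 12 LN229 samples was labelled and hybridised by the Affymetrix whole transcript sense assay, per the labels' protocols. The deposited values were read as log2 expression per probe set. They ran from 1.14 to 14.3, and base 2 was inferred from that range. Partek and the build hg18 are named, per the submitters' processing notes. How background and normalization were handled is not given in the sources used here. Of 22011 probe sets, the platform annotation gives 14432 a single symbol, 2408 several and 5171 none here. For the 197 genes with several single-symbol probe sets the one with the highest mean was taken, which left 14232 genes, and a RefSeq gene list of GRCh38.p14 held the gene IDs of 14404 probe sets. No low-value filter was used.

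A mean per group was fitted over all 12 arrays and 22011 probe sets with limma 3.58.1 (R 4.3.3, data.table version 1.17.8), with eBayes moderation and Benjamini-Hochberg adjustment over the genes in each comparison. Genes were called at an adjusted p under 0.05. Errors are limma's SE or the SD over 3 arrays, and the number of arrays limits the precision. The paralog differences used exact permutation (scipy 1.17.1). The fit was tested on simulated data with known changes and independent noise. Those data held no difference in scale between arrays, so the test does not cover the narrower HIF-1A siRNA arrays. Alternatives were quantile, cyclic loess and median scaling, a filter on dim probe sets, an intensity trend with a robust prior, only the 2 groups compared, the replicate number as a block, the mean of a gene's probe sets, adjustment over all probe sets, and leaving out each array. Motifs were searched on both strands of RefSeq promoter windows with Python 3.11.15, and figures were drawn with matplotlib 3.10.9.

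Earlier results of these data were known when the members, gene lists and naming rule were chosen. The rule names all members, HIF1A and EPAS1, up to 4 called genes per direction of each wider list, and the 3 genes most correlated with each member called in hypoxia.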

Additional observations from a re-analysis of the deposited data

How the results depend on the processing

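The direction of the 5 rises in hypoxia and of the 5 falls with HIF-1A siRNA held under all 15 alternatives of each comparison. The calls of KDM3A, KDM4B, KDM4C and TET1 in hypoxia and of KDM4C and JMJD6 with HIF-1A siRNA held under each of them too, and those lost are given with the genes above. Fitting only the 2 groups compared left 2 members called for HIF-1A siRNA against the hypoxic control, 2 for HIF-1A against HIF-2A siRNA and 0 for HIF-1A siRNA against normoxia, with fewer arrays to estimate the spread. Leaving out 1 array at a time gave 4 to 5 members in hypoxia against normoxia, 3 to 5 with HIF-1A siRNA and 0 to 0 with HIF-2A siRNA against the hypoxic control, 3 to 7 for HIF-1A against HIF-2A siRNA, 0 to 4 for HIF-1A siRNA and 4 to 4 for HIF-2A siRNA against normoxia. The lowest counts for HIF-1A siRNA against the hypoxic control came without HIF-1A siRNA replicate 3 or hypoxic control replicate 1. For HIF-1A against HIF-2A siRNA the lowest came without HIF-2A siRNA replicate 1 or 3 and the highest without HIF-1A siRNA replicate 1. For HIF-1A siRNA against normoxia the lowest came without normoxia replicate 1 and the highest without HIF-1A siRNA replicate 1. Samples share replicate numbers. Deviations of same-numbered arrays from their group means had r of -0.29 to 0.42, over 0.1 in 5 of 18 pairs. Differently numbered arrays were not compared, so this cannot decide whether the numbers mark pairs. The main fit took the numbers as names only. With the replicate number as a block, 5, 5, 0, 5, 2 and 4 members were called in the 6 comparisons, in the order just given; the change was JMJD6 for HIF-2A siRNA against normoxia (0.53, adjusted p = 0.0531).

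Signs turned only for changes that were not called. After quantile normalization and cyclic loess, KDM3B was at 0.14 and 0.13 in hypoxia, 0.084 and 0.073 with HIF-1A siRNA against the hypoxic control, 0.0039 and 0.011 against HIF-2A siRNA, and 0.22 and 0.20 against normoxia. In the same order KDM4A was at 0.071 and 0.088, 0.094 and 0.077, 0.14 and 0.12, and 0.17 and 0.17, and with HIF-2A siRNA against normoxia at 0.028 and 0.045. For HIF-1A siRNA against normoxia KDM4C was at 0.23 and 0.30. Cyclic loess put TET1 at 0.0015 with HIF-2A siRNA against the hypoxic control. Median centring put KDM3B at 0.024 in hypoxia, and, for HIF-1A siRNA against normoxia, KDM3B at 0.0014, KDM4C at 0.085 and TET3 at 0.017. The cause was not tested. Leaving out single arrays turned signs within -0.086 to 0.019 for KDM3B and -0.027 to 0.13 for TET3 in hypoxia. With HIF-2A siRNA against the hypoxic control the ranges were -0.093 to 0.012 for KDM4A, -0.10 to 0.12 for KDM4C, -0.18 to 0.31 for TET1 and -0.036 to 0.31 for TET2. They were -0.25 to 0.012 for KDM4C with HIF-1A siRNA and -0.019 to 0.082 for KDM3B with HIF-2A siRNA against normoxia. The 3 arrays per group limit all of these values, and the deposited file gives no measure of background.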

Other observations

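Of a list of histone and DNA methyltransferases and the DNA methylation factor UHRF1, 18 of 22 named genes were measured. In hypoxia against normoxia 4 fell and 1 rose by the limma test, beside 8.95% and 3.37% of all genes (median log2 change -0.13). The H3K27 methyltransferase EZH2 fell by 1.05 (adjusted p = 0.00198), the H3K9 methyltransferase SUV39H1 by 0.81 (adjusted p = 0.0155), UHRF1, which recruits the maintenance methyltransferase, by 0.54 (adjusted p = 0.0474) and DNMT1, the maintenance methyltransferase itself, by 0.46 (adjusted p = 0.0114). The H3K4 methyltransferase KMT2D rose by 0.40 (adjusted p = 0.0383). EZH2 kept its call under all 15 alternatives. Without single arrays, DNMT1 was lost in 2 cases, without normoxia replicate 1 or hypoxic control replicate 2 (highest adjusted p 0.0514), and SUV39H1 in 4, without normoxia replicate 1 or 3 or hypoxic control replicate 2 or 3 (highest 0.065). KMT2D was called in 9 and UHRF1 in 6 of 15 alternatives, and each was lost without any normoxia replicate and without hypoxic control replicate 1 or 2, UHRF1 also without replicate 3 (highest adjusted p 0.122 and 0.168). With HIF-1A siRNA against the hypoxic control, EZH1 alone of the 18 was called, beside 11.1% of all genes, with a log2 change of -0.88 (limma adjusted p = 0.0131). The call was lost without hypoxic control replicate 1 (-0.77, adjusted p = 0.0693) and in a fit of these 2 groups alone (adjusted p = 0.11). With HIF-2A siRNA 0 of 18 were called, beside 0.00703% of all genes, with 0 at an unadjusted p under 0.05.

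Of base excision partners of the TET enzymes and enzymes of 2-oxoglutarate supply, 7 of 9 named genes were measured. In hypoxia 3 fell and 0 rose, beside 8.95% and 3.37% of all genes. IDH1, which makes 2-oxoglutarate, fell by 0.85 (limma adjusted p = 5.48e-04, called under 15 of 15 alternatives). The thymine glycosylase MBD4 fell by 0.79 (adjusted p = 0.0245, lost without normoxia replicate 1 or 3 or hypoxic control replicate 2, highest adjusted p 0.105) and OGDH, which consumes 2-oxoglutarate, by 0.44 (adjusted p = 0.0205). OGDH kept its call under 7 of 15 alternatives and lost it without any single array of either group (highest adjusted p under all alternatives 0.126). With HIF-1A siRNA IDH1 was 0.37 higher than in the hypoxic control group (adjusted p = 0.0408), the only call of the 7, beside 11.1% of all genes. That call was lost without any single array except HIF-1A siRNA replicate 2, and in a fit of these 2 groups alone (adjusted p = 0.156). With HIF-2A siRNA 0 of 7 were called, beside 0.00703% of all genes, with 1 at an unadjusted p under 0.05.

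Within the HIF-1A siRNA group, replicate 2 had the most HIF1A transcript left. Of the 9 members, 3 (KDM4C, JMJD6 and TET1) were also highest on that array. This is near the 34.3% of all genes highest there, so it sets the members apart in no way. The full order of the 3 arrays matched that of HIF1A for 2 of the 9 members, KDM4C and JMJD6, and for 27% of all genes. Within the hypoxic control group, replicate 1 had the highest HIF1A value, and 8 of the 9 members, all but KDM4A, were highest there, as were 44.2% of all genes. That array also had the highest upper quartile of its group, at 8.50.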
